A study of Rattus norvegicus with 4 samples.

Results

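Ciliary neurotrophic factor, leukaemia inhibitory factor and the gp130 cytokine pathway were examined in the rat crista ampullaris, the epithelium in each semicircular canal that senses head rotation. The pathway was represented by 10 genes, chosen by their current rat symbol: the ligands Cntf and Lif, the receptor genes Il6st, Lifr, Cntfr and Osmr, the kinases Jak1 and Jak2, the transcription factor Stat3 and the inhibitor Socs3. They are 10 of the 12330 genes named on the array and had 16 of its 33849 gene probes, and every one of the 16 is described. The 2 groups were laser-captured layers of the same epithelium, each measured on 2 single-colour whole-genome arrays after linear amplification of polyadenylated RNA. The hair cell layer (HC layer) was the superficial capture: type I and II hair cells together with the cytoplasm that supporting cells send up between them. The supporting cell layer (SC layer) was the second capture, of the cell bodies that rest on the basal lamina. No treatment or genotype is given in the labels, and strain, sex and age are not given in the sources used here. Nothing in the labels ties the 2 arrays of each layer to different animals, so p-values speak only of how far these arrays differ among themselves, and that spread may be technical. In captured tissue, fewer cells of a type and less RNA per cell cannot be told apart.

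The cytokines of this family signal through gp130, the product of Il6st. CNTF binds a non-signalling receptor subunit encoded by Cntfr, which joins gp130 and the LIF receptor, while LIF binds the LIF receptor and gp130 directly, and oncostatin M can use the receptor encoded by Osmr. The receptors carry Janus kinases, which phosphorylate STAT3. STAT3 enters the nucleus and activates Socs3, whose product shuts the receptor complex down. CNTF is a survival factor for several kinds of neuron, lacks a classical secretion signal and is made by Schwann cells in peripheral nerve.

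The HC layer arrays were brighter as a whole. Their median raw intensity over the array was 26.45 and 16.98, against 12.12 and 12 in the SC layer, and 48.8% and 45.6% of gene probes were detected against 39.8% and 39.7%. The negative control spots had median raw intensities of 4.15 to 5.36. Hair cell markers were at a lower level in the SC layer: 15 of 17 tested members were called lower there and 0 higher. Over the whole array, 33.9% of tested probes were called lower in the SC layer and 33.5% higher. Of the 15, Espn, Cdh23, Lhfpl5 and Kcnma1 were detected in the HC layer alone. They had to differ to be tested, so their calls are no support. The summed normalized intensity of the list was 12652 and 13534 in the HC layer against 5612 and 5336. Supporting cell markers were divided, with 7 of 17 tested called in each direction, so that they do not set the layer labelled as supporting cells apart.

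Of the 16 probes, 8 (50%) were not detected on any array, beside 44.4% of all gene probes. The other 8 belonged to 6 genes. Cntf, Lif, 2 probes of Il6st and 1 of Stat3 were detected on all 4 arrays, a second Stat3 probe on both HC layer arrays alone, and 1 probe each of Jak2 and Socs3 on a single HC layer array. The 6 probes detected on at least 2 arrays were tested, and limma with Benjamini-Hochberg adjustment called all 6 at an adjusted p under 0.05, 3 higher in each layer. Over the whole array 67.4% of 16483 tested probes were called, 33.5% higher in the SC layer and 33.9% higher in the HC layer. The second Stat3 probe passed the detection filter only through the layer in which it was bright. A probe detected in 1 layer alone had to differ to be tested, so its call and adjusted p, here and for every such probe named later, are no support for a difference. In raw intensity, both HC layer arrays lay above both SC layer arrays for 67.0% of tested probes, and the reverse held for 21.0%. After normalization the layers did not overlap for any of the 6 member probes, nor for 89.4% of all tested probes, so that separation alone says little on these arrays.

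**Figure D1:**
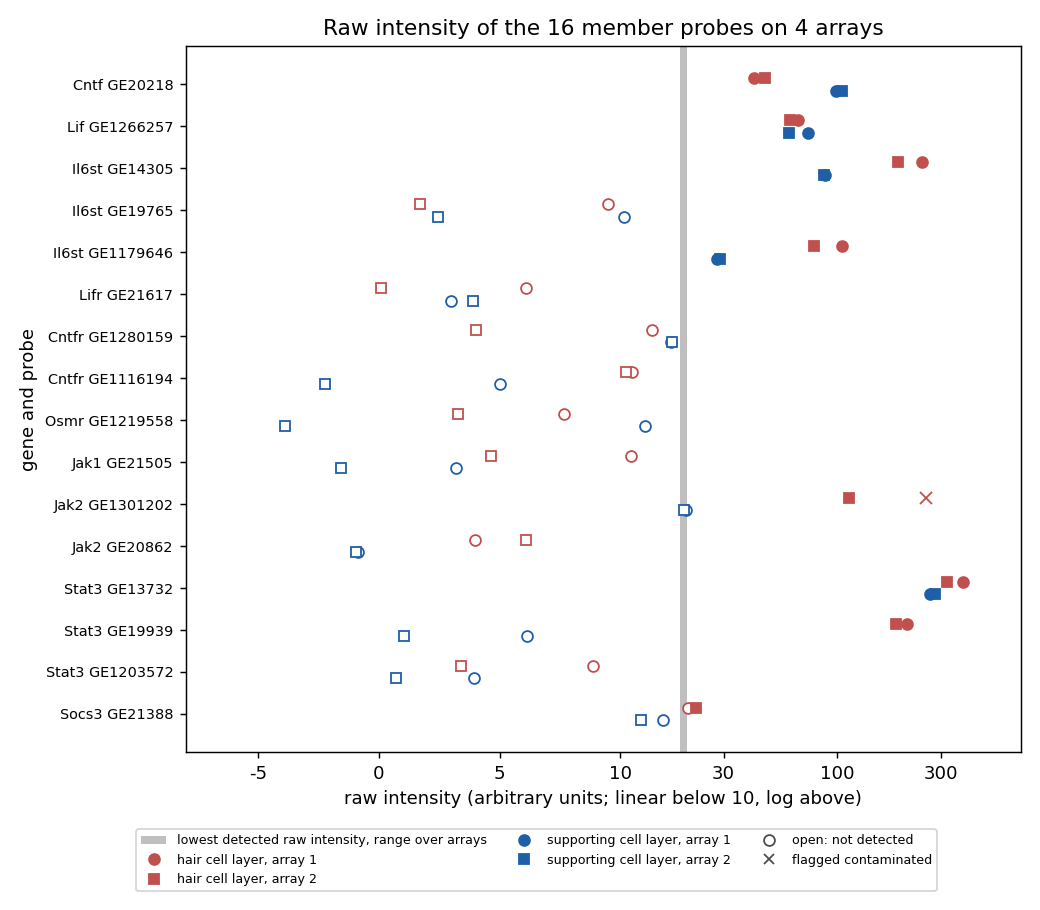
Raw intensity (horizontal axis, arbitrary units, linear below 10 and logarithmic above) of each of the 16 probes on the 4 arrays, filled where detected, open where not and crossed where the spot was flagged as contaminated. The grey band spans the lowest detected raw intensity of the arrays, 18.9 to 20.3; Cntf lies to the right in the SC layer, both bright Il6st probes and the Stat3 probe GE19939 lie to the right in the HC layer, and the probes of Lifr, Cntfr, Osmr and Jak1 are open on every array.

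Of the ligands, Cntf was higher in the SC layer. Its probe (GE20218) read 41.3 and 46.7 in raw intensity on HC layer arrays 1 and 2 and 99.2 and 105 on SC layer arrays 1 and 2, and all 4 spots were detected. The layers did not overlap, and Cntf was among the 21.0% of probes that read higher on both of the dimmer arrays before any normalization. After quantile normalization the mean intensity was 35.5 ± 9.59 (SD, n = 2) in the HC layer and 131 ± 7.62 (SD, n = 2) in the SC layer. The difference was 1.91 ± 0.23 on the log2 scale (SC layer minus HC layer, with the standard error from limma), a 3.76-fold change, with an adjusted p of 0.00735. A difference at least as high was fitted for 8.67% of all tested probes and for 4.16% of the probes detected on all 4 arrays. Cntf stayed called under each of the 13 other ways of processing that were tried, with differences from 1.22 to 2.19.

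Markers of other cell types were read beside Cntf. The Schwann cell list, of cells known to make CNTF, had nearly the same summed normalized intensity on the 4 arrays, 5279 and 5266 in the HC layer and 5199.6 and 5241 in the SC layer. Each sum given here is over the members of a list with a usable spot on every array, which left out Mbp, Cldn5, Cd68 and Csf1r. Of the 13 tested members of the Schwann cell list, 2 were called higher in the SC layer and 5 higher in the HC layer. Its brightest members went opposite ways, so the near equal sum hides differences. Normalized Prx was 867 and 886 in the HC layer and 1689.9 and 1657 in the SC layer. Pmp22 was 1705 and 1693 against 1381 and 1347, and Cnp 1099.7 and 1177 against 773 and 733. Mbp, Ngfr, Foxd3 and Cdh19 were not detected on any array. The sums of the blood vessel, connective tissue and nerve lists moved with Cntf, and a few genes gave much of each rise. In normalized intensity, HC layer against SC layer, Tie1 was 33.9 and 37.9 against 417 and 416, and Abcb1a 46.9 and 42.3 against 454 and 452. Mgp was 136 and 139 against 705 and 659.6, and Tbx18 149 and 146 against 724 and 734. In the neuronal list Gria2 was 33.6 and 42.1 against 575 and 574. The endothelial and pericyte list summed to 651 and 672 in the HC layer against 1649 and 1670.3, with 7 of 10 tested members called higher in the SC layer and 1, Vwf, lower, and Kdr and Pdgfrb undetected. The connective tissue list summed to 1043 and 1065 against 2457 and 2484 (5 of 8 called higher in the SC layer and 1, Fbn1, lower; Lum, Pdgfra, Postn and Fbln1 undetected). The neuronal list summed to 1377 and 1454 against 2525 and 2766 (7 of 9 called higher there; the neurofilament genes Nefl and Nefm called lower; Nefh and Stmn2 undetected). The blood cell list, with 4 tested members, summed to 71.7 and 109.7 against 267 and 255 (1 called higher in the SC layer, 0 lower; S100a8 undetected). The immune list was divided, with 2 of 8 tested members called higher in the SC layer and 3 lower. It summed to 454 and 478 against 271 and 253, of which Aif1 alone gave 171 and 173 against 13 and 1.65, and Ptprc, Cx3cr1, C1qb and Lyz2 were undetected. Some of these calls were of probes detected in 1 layer alone, which had to differ to be tested, so those calls are no support. In the SC layer alone these were Emcn, Rgs5, Thy1 and Ahsp, the 1 blood cell call. In the HC layer alone they were Ncam1, Nefl, Nefm, Fbn1 and the 3 immune genes called lower. Over the whole array, 33.5% of tested probes were called higher in the SC layer and 33.9% in the HC layer. The part of these cell types in the Cntf difference was not tested.

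The sequence upstream of Cntf is shown because its probe had the largest difference among the 5 member probes detected on all 4 arrays; that of Stat3 is shown beside it because the probes of this gene disagreed. Both are the 250 bases before the gene start in RefSeq (GRCr8, minus strand, written 5′ to 3′ along the gene), at chr1:219314536-219314785 for Cntf and chr10:86363360-86363609 for Stat3. Capitals mark matches to the AP-1 motif TGANTCA; the STAT motif TTCNNNGAA was searched too, both on either strand, and no match of one overlapped the other.
Cntf: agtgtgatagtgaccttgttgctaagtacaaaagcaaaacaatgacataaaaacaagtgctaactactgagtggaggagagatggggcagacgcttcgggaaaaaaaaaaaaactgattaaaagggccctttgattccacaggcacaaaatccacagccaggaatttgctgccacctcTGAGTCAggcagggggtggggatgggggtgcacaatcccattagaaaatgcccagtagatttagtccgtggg
Stat3: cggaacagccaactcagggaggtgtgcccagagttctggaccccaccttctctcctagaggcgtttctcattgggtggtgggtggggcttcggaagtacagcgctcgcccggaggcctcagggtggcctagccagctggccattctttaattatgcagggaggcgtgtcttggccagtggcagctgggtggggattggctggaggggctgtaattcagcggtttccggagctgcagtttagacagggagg
The capitals in Cntf begin 72 bases before the gene start (position -72). Of the 10 genes, 7 had a window of 300 bases (250 before to 50 after the start) in the sequence table. The AP-1 motif was in 2 of these 7, Cntf and Osmr, and in 7.33% of all 33469 windows, and the STAT motif was in 0 of 7 and in 8.87% of all windows. The table gives 1 annotated start for each gene, and those of Il6st, Socs3 and Lifr lie 16, 17 and 27 bases before an ATG. Whether transcription begins there in this tissue was not tested. These matches describe the letters alone, and a window without a match says nothing about the factor.

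Lif differed between the layers only once the arrays had been scaled to each other. Its probe (GE1266257) read 65.9 and 60.4 in raw intensity on HC layer arrays 1 and 2 and 73.2 and 60.2 on SC layer arrays 1 and 2, all detected. These raw values overlapped. Quantile normalization raised the dimmer arrays, to a mean of 86.1 ± 10.4 (SD, n = 2) in the SC layer against 51.9 ± 3.77 (SD, n = 2) in the HC layer. The difference was then 0.73 ± 0.13, a 1.66-fold change called higher in the SC layer (adjusted p = 0.0175 by limma). Without normalization between arrays the difference was 0.07 (adjusted p = 0.706 by limma), beside a median of -0.67 over all tested probes. The call was also lost when either HC layer array was left out (0.65 with adjusted p = 0.092 without replicate 1, and 0.80 with adjusted p = 0.0684 without replicate 2, by limma). Lif read higher relative to the other probes of its array in the SC layer, while its own raw signal was not separated.

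**Figure D2:**
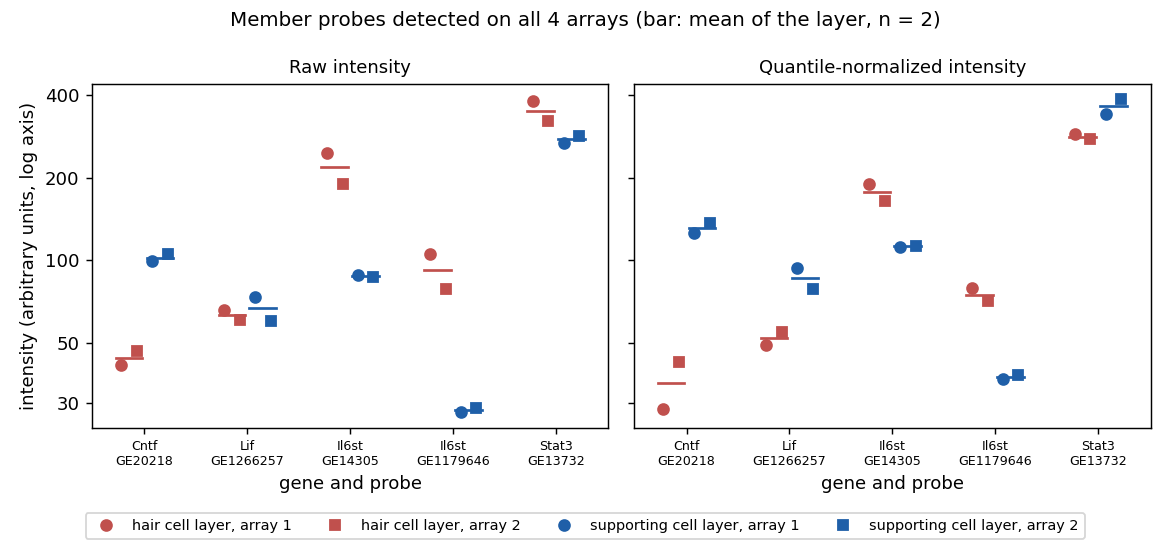
Intensity (vertical axes, arbitrary units, logarithmic) of the 5 probes detected on all 4 arrays, as raw values (left) and after quantile normalization (right), with each array as a point and the mean of each layer as a bar. Cntf is higher in the SC layer in both panels and both Il6st probes are higher in the HC layer in both, while Lif overlaps in raw intensity and Stat3 GE13732 changes sides, from 352 against 277 to 282 against 365 (means of the HC and SC layers).

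Among the receptors, the gp130 gene Il6st was higher in the HC layer on both of its detected probes. Probe GE14305 read 247 and 190.1 in raw intensity in the HC layer and 88.0 and 87.0 in the SC layer. Probe GE1179646 read 105 and 78.6 against 27.9 and 28.9. Neither probe overlapped between the layers, before or after normalization. The differences were -0.65 ± 0.10 (1.57-fold, adjusted p = 0.0127 by limma) for GE14305 and -1.0 ± 0.09 (2.0-fold, adjusted p = 0.0043 by limma) for GE1179646. Values at least as low were fitted for 31.6% and 25% of all tested probes, and for 20.3% and 12.7% of the probes detected on all 4 arrays. The remaining Il6st probe, GE19765, was not detected on any array, with raw intensities between 1.69 and 10.4, and neither repeats nor contradicts the others. GE14305 and GE19765 share a UniGene cluster, a group of sequences taken to be 1 gene, in the scanner files, while GE1179646 is placed in another. Across the 13 other ways of processing, GE1179646 stayed called in 12 and GE14305 in 10, always with a higher level in the HC layer. The exceptions include the scanner software's own normalized intensity, which gave -0.87 (adjusted p = 0.121 by limma) and -0.49 (adjusted p = 0.409 by limma).

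The subunits that pair with gp130 gave no signal to compare. The single named probe of Lifr (GE21617), which encodes the LIF receptor, read between 0.0814 and 6.08 in raw intensity over the 4 arrays. Osmr (GE1219558) read between -3.90 and 13. For Cntfr, which encodes the CNTF-binding subunit, GE1280159 read 14.1 and 4.01 in the HC layer and 17.2 and 17.3 in the SC layer, and GE1116194 read 11.4 and 10.6 against 5.0 and -2.24. All of these spots were called undetected by the scanner software, and they lay below the lowest detected raw intensity of any array, 18.9. The 2 Cntfr probes leaned opposite ways at this level. No layer difference was detectable for Lifr, Osmr or Cntfr on these arrays, and nothing follows from this about whether the receptors are present.

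The probes of Jak1 and Jak2 were near background except for 1 probe of Jak2. JAK1 and JAK2 are among the kinases bound to gp130, with TYK2. The Jak1 probe (GE21505) read between -1.57 and 11.2 and was not detected on any array. Of the Jak2 probes, GE20862 read between -0.963 and 6.09 and was not detected. The other, GE1301202, read 113 on HC layer array 2, where it was detected, and 20.1 and 19.7 on the SC layer arrays, where it was not. Its spot on HC layer array 1 read 257 but was flagged as contaminated and left out. Jak2 was thus at least 3.53-fold higher on the 1 usable HC layer array at this probe. That is a lower limit, of the normalized signal over the higher of the SC layer's lowest detected signal and the probe's own. The probe did not reach the detection filter and was not tested. Fitted without that filter, on 1 HC layer array and 2 of the SC layer, its difference of -1.83 ± 0.19 did not pass (adjusted p = 0.0533 by limma).

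The 3 probes of Stat3, the transcription factor downstream of gp130, gave 3 different pictures. GE19939 read 209 and 186 in raw intensity in the HC layer, both detected, and 6.15 and 1.03 in the SC layer, neither detected. It was at least 5.84-fold higher in the HC layer (adjusted p = 0.011 by limma), as a lower limit from the lowest detected normalized signals of the SC layer arrays, 26.6 and 28.3. Without HC layer replicate 1 or 2 its adjusted p was 0.0743 or 0.0735 by limma. GE13732 was detected on all 4 arrays and read 381 and 322 in the HC layer against 269 and 284 in the SC layer. After normalization it was called slightly higher in the SC layer, by 0.37 ± 0.10 (1.29-fold, adjusted p = 0.0426 by limma). Without normalization the sign turned, to -0.34 (adjusted p = 0.111 by limma), and without HC layer replicate 1 or 2 or SC layer replicate 2 the call was lost (adjusted p = 0.129, 0.162 and 0.108 by limma). GE1203572 was not detected on any array, with raw intensities from 0.70 to 8.88. The scanner files place GE13732 in another UniGene cluster than the other 2 probes. One level of Stat3 for each layer can therefore not be given.

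Socs3, the feedback inhibitor, was at the limit of detection. Its probe (GE21388) read 20.6 and 22.4 in raw intensity in the HC layer and 15.8 and 12.5 in the SC layer, and only the value of 22.4 was called detected. The raw values did not overlap, but the normalized values did, at 14 and 20.6 against 22.6 and 17.6. The probe was not tested, and no fold is given because its signal in the HC layer lay below the lowest detected normalized signals of the SC layer arrays.

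**Figure D3:**
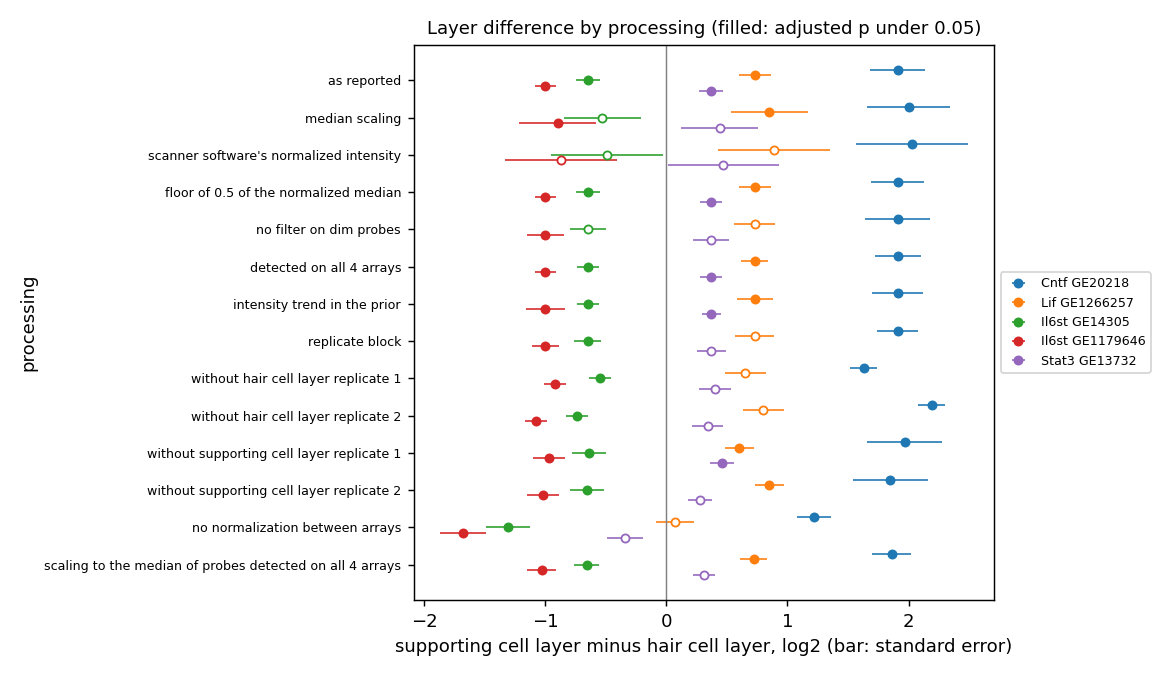
Difference between the layers (horizontal axis, log2, SC layer minus HC layer, bars are standard errors) of the 5 probes detected on all 4 arrays, under each processing (vertical axis), filled where the adjusted p was under 0.05. Cntf is filled throughout, from 1.22 to 2.19, and the Il6st probes stay left of 0, while Lif falls to 0.07 and Stat3 GE13732 crosses to -0.34 without normalization between arrays.

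Of 67 other genes of the pathway in 6 lists, 52 had a named probe, and 37 of their 79 probes were tested. Of these 37, 9 were called higher in the SC layer and 14 higher in the HC layer, 62.2% together beside 67.4% of all tested probes, with a median difference of 0.09 beside 0.01. Of the 23 calls, 5 were of probes detected in the HC layer alone. Without normalization between arrays the split was 1 and 23, and among probes detected on all 4 arrays, fitted alone, it was 12 and 9. The share called is near that of the whole array. By list it was 80% of 5 tested kinase and STAT probes, 81.8% of 11 inhibitor probes, 37.5% of 8 adaptor probes and 70% of 10 probes of STAT3 targets, beside the same 67.4%, or 33.5% and 33.9% by direction. No other ligand or receptor of the family was called. Cardiotrophin 1 (Ctf1), another ligand of gp130 and the LIF receptor, read 85.6 and 68.4 in raw intensity in the HC layer against 34.4 and 42.8. Its difference of -0.35 ± 0.14 did not pass (adjusted p = 0.111 by limma; 95% interval -0.78 to 0.09), but it passed without SC layer replicate 2 (-0.51, adjusted p = 0.0379 by limma), without normalization (-1.0, adjusted p = 0.014) and when probes not detected on every array were dropped (adjusted p = 0.0459). Ebi3, a subunit of interleukins 27 and 35, had a difference of 0.26 ± 0.12 (95% interval -0.10 to 0.61), and the interleukin 11 receptor gene Il11ra1 of 0.36 ± 0.15 (95% interval -0.08 to 0.80). Neither passed (adjusted p = 0.14 and 0.106 by limma), and both turned negative without normalization (-0.41 and -0.30). Il11ra1 passed in that smaller set of probes too (0.36, adjusted p = 0.0426 by limma). Il6, Il6r and Il27ra were not detected on any array.

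In the list of other kinases and STATs, 3 of 5 tested probes were called higher in the HC layer and 1 in the SC layer. Both probes of Jak3, a kinase used by receptors with the common gamma chain, were higher in the HC layer. GE20012 read 439 and 367 in raw intensity against 103 and 100.3, and GE21587 read 294 and 267 against 75.2 and 73.9. Their differences were -1.32 ± 0.07 (adjusted p = 0.00192 by limma) and -1.23 ± 0.07 (adjusted p = 0.00196 by limma), and both probes kept their call in every other processing that was tried. Stat2, a mediator of type I interferon signalling, had a difference of -1.30 ± 0.11 (adjusted p = 0.00966 by limma), on 1 usable HC layer array since the other spot was flagged as contaminated. The Stat2 call was lost with the replicate number as a block (adjusted p = 0.0736 by limma) and without the filter on dim probes (adjusted p = 0.0812). Stat5a was not detected on any array.

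Inhibitors of cytokine signalling went both ways, with 4 of 11 tested probes called higher in the SC layer and 5 in the HC layer. Socs6 (GE1255407), a relative of Socs3, read 40.9 and 32.7 in raw intensity in the HC layer against 106 and 96.6, the opposite order to most probes of these arrays. Its difference was 2.18 ± 0.08 (adjusted p = 0.00129 by limma). The other probe of Socs6 was not detected, but its spot on SC layer array 2 read 259, was flagged as contaminated and was left out. Cish, a STAT5-induced inhibitor, was at least 1.13-fold higher in the HC layer at the 1 probe detected there (adjusted p = 0.0249 by limma), a call lost without HC layer replicate 1 or 2 (adjusted p = 0.124 and 0.118). It was not detected in the SC layer. Pias2, which encodes an inhibitor of STAT binding to DNA, had a difference of -1.01 ± 0.10 at GE13248 (adjusted p = 0.00434 by limma). At GE19177 it was 0.61 ± 0.13 (adjusted p = 0.024 by limma), so that the Pias2 probes disagreed. GE19177 overlapped in raw intensity, with 907 and 733 in the HC layer against 722 and 797. The scanner files place these probes in different UniGene clusters. Socs1, Socs2, Socs4 and Pias4 were not detected on any array.

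**Figure D4:**
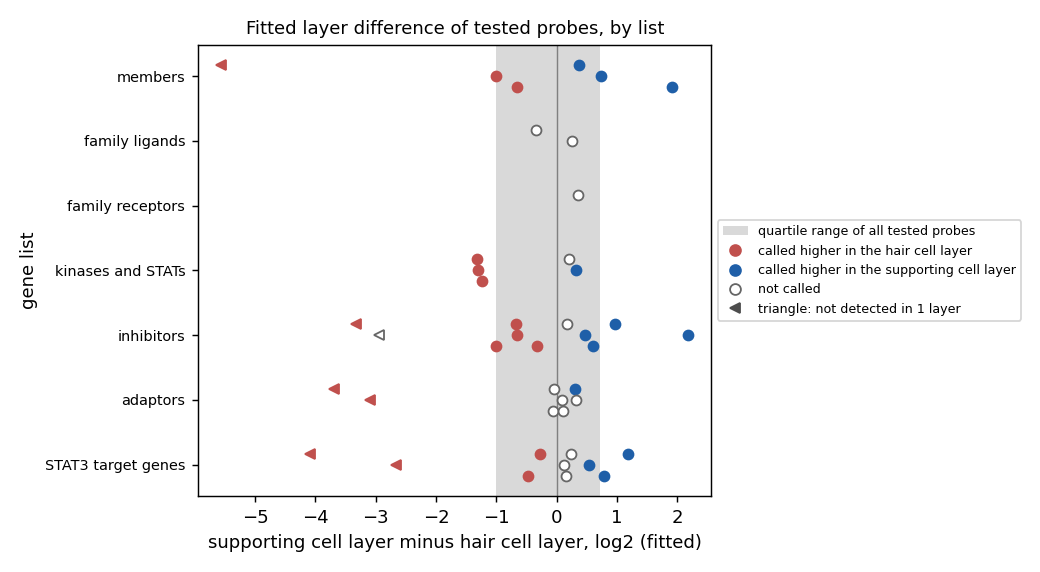
Fitted difference between the layers (horizontal axis, log2, SC layer minus HC layer) of each tested probe, for the 10 pathway genes (members) and 6 lists of other pathway genes (vertical axis), coloured by call; triangles mark probes without detected signal in 1 layer, whose fitted value is no measure of size. The grey band runs from the lower to the upper quartile of all tested probes, -1.0 to 0.72. Of the probes beyond it on the supporting cell side, Cntf at 1.91 and Socs6 at 2.18 lie furthest out.

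Of 8 tested probes of signalling adaptors, 1 was called higher in the SC layer and 2 in the HC layer. The latter were Stam and Stam2, whose products bind Janus kinases and sort receptors on endosomes. Neither was detected in the SC layer. At the probes detected in the HC layer, Stam was at least 3.57-fold (adjusted p = 0.00221 by limma) and Stam2 at least 1.99-fold (adjusted p = 0.00152 by limma) higher there. Another Stam probe, placed in a different UniGene cluster, was not detected on any array. Of 10 tested probes of STAT3 target genes, 3 were called higher in the SC layer and 4 in the HC layer. The adhesion molecule gene Icam1 had a difference of 1.18 ± 0.17 at GE20088 (adjusted p = 0.0112 by limma). The call was lost without HC layer replicate 1 or 2 (adjusted p = 0.0599 and 0.0712). It was also lost without normalization between arrays (0.51, adjusted p = 0.102 by limma). The other Icam1 probes were not detected on any array. Of the 4 calls in the HC layer, 2 were of probes detected there alone. At these, the immediate early gene Fos was at least 2.67-fold higher in the HC layer (adjusted p = 0.0023 by limma). The survivin gene Birc5 was at least 2.04-fold higher there (adjusted p = 0.0414 by limma). Another probe of Fos was not detected on any array. The Birc5 call was lost without HC layer replicate 1 or 2 (adjusted p = 0.14 and 0.177). Bcl3, Mcl1, Myc, Junb, Ccnd1, Gfap and Fgb were not detected on any array, so 7 of the 18 targets with a named probe gave no signal to compare.

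The genes whose profile over the 4 arrays was most like that of Cntf were Rab40c, Ccnt2, Begain, Tns1 and Snx6. They had the smallest Euclidean distances, 0.14 to 0.21, between log2 values centred over the 4 arrays, among 6432 named probes detected on all of them. Rab40c, the nearest, read 31.4 and 36.1 in raw intensity in the HC layer against 66.9 and 70.1, with a difference of 1.78 ± 0.26 beside the 1.91 ± 0.23 of Cntf. With 4 points that fall into 2 layers, this likeness describes little more than a similar size of the layer difference.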

How the data were processed

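CodeLink Expression Analysis 4.0.0.23520 read the slides, per the file headers. The deposited raw intensity includes values below 0, as a background-subtracted signal does. The deposited normalized intensity equals it over the median of the array. The deposited series table repeats the normalized intensity, but the column of supporting cell layer replicate 2 is shifted by 2 rows, so the table served only to align probes with the platform annotation. Symbols were updated through gene identifiers to RefSeq (GRCr8). Of the gene probes, 16721 were named from the platform, 192 by RefSeq accession and 10 by description. Left unnamed were 165 with several genes, 9 with an accession of another gene and 16752 for which no gene name was found.

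Spots flagged contaminated, irregular or failed were left out (69 to 637 per array). Raw intensities were quantile-normalized, values under 0.1 of the normalized median were set to that level, and log2 was taken. Gene probes with a good or saturated spot on 2 or more of the 4 arrays were tested with limma 3.58.1 in R 4.3.3 (eBayes without trend or block, two-sided, Benjamini-Hochberg over 16483 probes). A probe undetected in 1 layer has only a lower limit of fold, and the number of arrays limits all precision. With 2 arrays against 2, an exact permutation test cannot go below 0.333, so none was used. On simulated data in which 200 of 16483 probes changed, changes of 2 and 4 on the log2 scale were called for 48 of 80 and 33 of 40. A change of 1 was called for 1 of 80. On the measured arrays 67.4% of probes were called, so the adjustment was stricter in the simulation. These rates therefore do not carry over to the measured arrays.

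The members, gene lists and tests were chosen with earlier results of these data known. Named genes were all member probes, every tested ligand and receptor of the family, pathway probes called with a fitted change of at least 1 (log2) whose layers did not overlap, and the 5 profiles nearest to Cntf. For cell type lists the brightest probe of a gene was used, and 2 alternatives (no normalization, and scaling to the median of probes detected on all 4 arrays) were added after the data were seen. Normexp correction was not run, because the files give no separate spot and background signals, nor was a slide block, because each array is on its own slide. Single genes of the lists that are withheld are counted in the totals and not reported here by name.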

Additional observations from a re-analysis of the deposited data

How the results depend on the processing

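Of the 6 tested member probes, Cntf kept its call in all 13 alternatives, while Lif lost it in 6 and Stat3 GE13732 in 9, including its reversal. The 6 called member probes became 2 with the scanner software's normalized intensity and 3 without a filter on dim probes, and 3 to 6 when 1 array was left out. Over the array, 11112 called probes became 6871 and 6654 under the same settings, and 7181 to 9991 with 1 array left out. The fewest were without hair cell layer replicate 1, and 7407 remained without replicate 2. The 23 called probes of other pathway genes became 14 with median scaling, 12 with the scanner software's values, 9 without a filter and 13 with the replicate block, and 9 to 19 with 1 array left out, 9 of them without either hair cell layer array. Without normalization between arrays Stat3 GE13732 (-0.34), Ebi3 (-0.41) and Il11ra1 (-0.30) reversed, and 21.1% of the array's calls were higher in the supporting cell layer in place of 49.7%. Among the other pathway probes 28.6% were so with median scaling, 25% with the scanner software's values and 4.17% without normalization. Among those detected on all 4 arrays it was 57.1%, in place of 39.1%. For member probes the share was 25% both without normalization and with the replicate block, in place of 50%. It was 33.3% without a filter on dim probes and 60% among those detected on all 4 arrays. The causes were not tested. Same-numbered arrays did not deviate together (r = -0.0282 across 11059 probes, which are not independent). With 2 arrays in each layer this cannot settle whether the numbers pair the layers, and the labels do not say. With the replicate block 4 of the 6 member probes were called, and Lif and Stat3 GE13732 were not (adjusted p = 0.0589 and 0.103 by limma).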

Other observations

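A further probe, GE1277200, has no gene named here but shares its UniGene cluster in the scanner files with the undetected Lifr probe. It read 6.61 and 10.6 in raw intensity in the hair cell layer, neither detected, and 37.8 and 38.2 in the supporting cell layer, both detected. It was called higher in the supporting cell layer (adjusted p = 0.0107 by limma), at least 3.05-fold as a lower limit, but as a probe detected in 1 layer alone it had to differ to be tested, so the call is no support. It was found by the shared cluster after the values were seen, and whether it reads Lifr was not tested. A probe annotated to both Raver2 and Jak1 (GE1261058) was not detected on any array, with raw intensities from -2.83 to 6.40.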
